A study of Xenopus tropicalis with 6 samples.

Results

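Gene expression of the epidermis was followed through 10 genes of *Xenopus tropicalis*, chosen by exact gene symbol for their known roles: *tp63*, *grhl1*, *grhl2*, *grhl3* and *gata3* as epidermal regulators, *foxi1*, *ubp1* and *ca12* as ionocyte genes, and *foxa1* and *itln1* as secretory cell genes. All 10 were present among the 23634 genes of the expression table, and all 10 were among the 13382 genes tested. Whole embryos of the Nigerian strain were analysed at Midneurula Stage 16. In 3 samples the embryos had been injected with 10 ng of the standard control morpholino, and in 3 samples siblings had received 10 ng of the morpholino pair that blocks splicing of the *n1-src* microexon (N1-SRC morphants). Samples are numbered 1 to 3 in each group, and samples with the same number were treated as a pair, called a set below. Expression is given in TPM, a share of all transcripts that is corrected for transcript length and sums to the same total in every sample. TPM carries no read depth, so the spread between samples is the only error available. The RNA is from whole embryos, and a lower level in fewer cells cannot be told apart from less RNA in each cell.

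The embryonic skin of *Xenopus* is a mucociliary epithelium with an outer and an inner layer. Goblet cells of the outer layer secrete mucus and lectins, and cells that arise in the inner layer move outward as multiciliated cells, ionocytes and small secretory cells. Bone morphogenetic protein (BMP) signalling sets epidermal against neural fate in the ectoderm. P63 marks and maintains basal progenitors, grainyhead-like factors switch on genes of the epithelial barrier, Foxi1 specifies ionocytes, and Foxa1 specifies small secretory cells.

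The gene targeted by the morpholinos, *src*, was at 18.7, 25.8 and 49.2 TPM in control samples 1 to 3 and at 15.6, 17.3 and 34.6 TPM in morphant samples 1 to 3. It was lower in each set, although the groups overlapped. In the paired limma fit described below, the log2 fold change of *src* was -0.44 (limma adjusted p = 0.0398, and 0.822 without the pairing). A gene-level sum cannot show the neuronal splice form on its own. The paper reports reduced *n1-src* in morphants by RT-PCR and by short reads over the microexon. At the gene level it reports a significant fall of *src*, and at the transcript level a larger fall of *n1-src* than of *c-src*. In morphant sample 1 the gene pair LOC108645507 and LOC100335111 held 4.89% of all TPM, against 0.193 to 0.525% in the other samples. The median log2 fold change of all genes tested was -0.068, morphant minus control, on the log2(TPM + 0.5) scale used throughout. This scale understates changes of genes at low TPM.

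In controls *itln1* had the highest level of the 10 genes and *grhl2* the lowest. Mean control levels, per length, were 231 TPM for *itln1*, 121 TPM for *grhl3*, 84.1 TPM for *gata3*, 70.9 TPM for *foxa1*, 66.6 TPM for *tp63*, 64.8 TPM for *grhl1*, 63.6 TPM for *foxi1*, 41.5 TPM for *ubp1*, 37.6 TPM for *ca12* and 10.4 TPM for *grhl2*. The sample ranges of *foxa1*, *tp63*, *grhl1* and *foxi1* overlapped from each gene to the next, as did those of *ubp1* and *ca12*, so these neighbours are not ordered beyond their spread. In morphants *itln1*, at 142 TPM, and *grhl3*, at 111 TPM, also overlapped, and *ubp1*, at 58.2 TPM, overlapped with *foxa1*, at 62.6 TPM, and no longer with *ca12*, at 38.5 TPM. The control samples themselves differed most in *grhl3*, whose highest value was 1.81 times its lowest, and least in *gata3*, at 1.04 times, while the median ratio over all genes tested was 1.42.

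**Figure D1:**
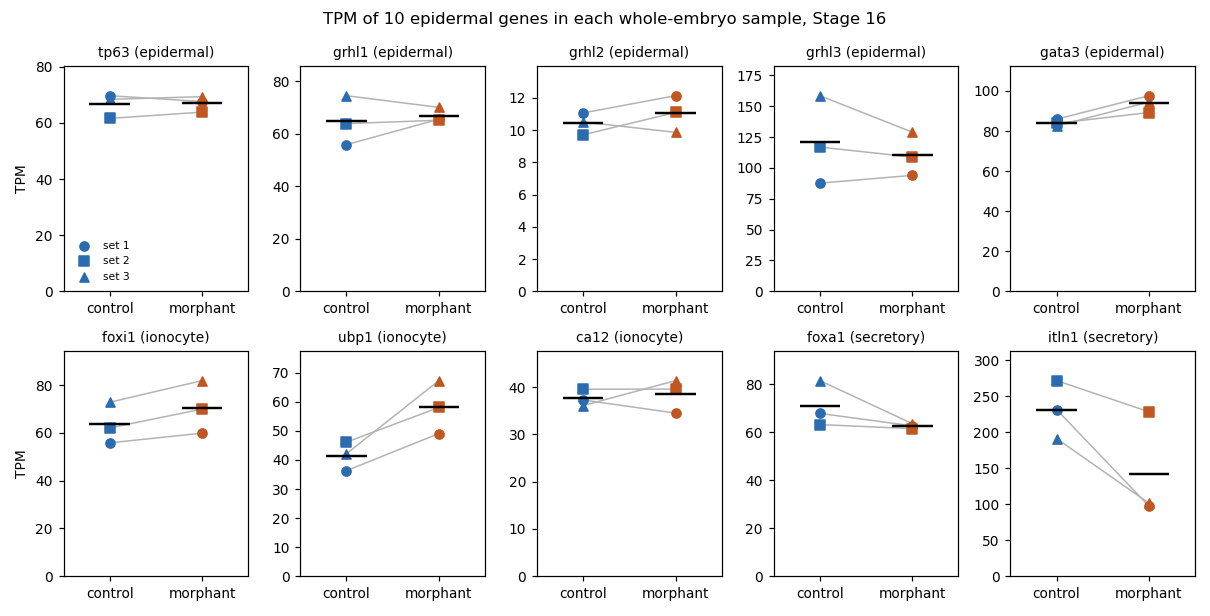
TPM (vertical axes, from 0) of the 10 genes in control and N1-SRC morphant samples. Each marker is 1 sample, its shape gives the set, grey lines join samples of a set and black bars are group means; *ubp1* and *gata3* are the genes whose 3 morphant samples all lie above the 3 control samples, and *itln1* is far lower in morphants in sets 1 and 3 but little lower in set 2.

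The comparison of morphant with control embryos asks which of these genes responded when *n1-src* was knocked down. Of the 10 genes, 1 passed the test: *ubp1*, at 140% of its control mean. Its call was kept in 7 of the 12 alternative settings described below. The other 9 did not pass the test, and they included *itln1*, which had the largest difference at 61.5% of control and an adjusted p just above the threshold. Calls are from limma with the replicate number as a block and a Benjamini-Hochberg adjusted p of at most 0.05 over all 13382 genes. Of the genes tested, 2.62% were called higher and 5.87% lower in morphants, against 1 of the 10 genes higher and 0 lower. These were 350 and 786 genes, and with median scaling 533 and 381. At an unadjusted p under 0.05 from limma, 3 of the 10 were higher and 1 lower, against 9.76% and 23.4% of all genes tested. Counts of listed genes at an unadjusted p are to be read against these shares.

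Of the 10 genes, 3 were higher in morphants in all 3 sets (*ubp1*, *foxi1* and *gata3*) and 2 were lower in all 3 sets (*itln1* and *foxa1*), while among all genes tested 17.6% were higher and 38.5% lower in all 3 sets. All 3 morphant samples lay above all 3 controls for 2 of the 10 genes and below them for 0, against 3.71% and 11.3% of all genes tested. The median log2 fold change was 0.042 over the 10 genes and -0.068 over all genes tested.

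Among the ionocyte genes, *ubp1* encodes a transcription factor of the CP2 family, relatives of the grainyhead factors, that acts with Foxi1 in *Xenopus* ionocyte development. Its level was 36.3, 46.1 and 42.1 TPM in control samples 1 to 3 and 49.1, 58.1 and 67.3 TPM in morphant samples 1 to 3. Every morphant sample lay above every control sample, and the third set differed most. The mean was 41.5 ± 4.94 TPM (SD, n = 3) in controls and 58.2 ± 9.12 TPM (SD, n = 3) in morphants. The log2 fold change of *ubp1* was 0.48 (standard error 0.082, 95% confidence interval 0.27 to 0.68, limma adjusted p = 0.0338), with changes of 0.43, 0.33 and 0.67 in sets 1 to 3. This placed *ubp1* at percentile 96.4 of the log2 fold changes of all genes tested.

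The call of *ubp1* was not held by every setting, although its log2 fold change was positive in all 12 alternatives, between 0.38 and 0.57. The limma adjusted p was 0.0682 without set 2, 0.0841 without set 3, 0.061 without the mean-variance trend, 0.195 with no filter on low TPM and 0.497 without the replicate block. Median scaling of the samples kept the call, with a log2 fold change of 0.57 and a limma adjusted p of 0.0329.

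**Figure D2:**
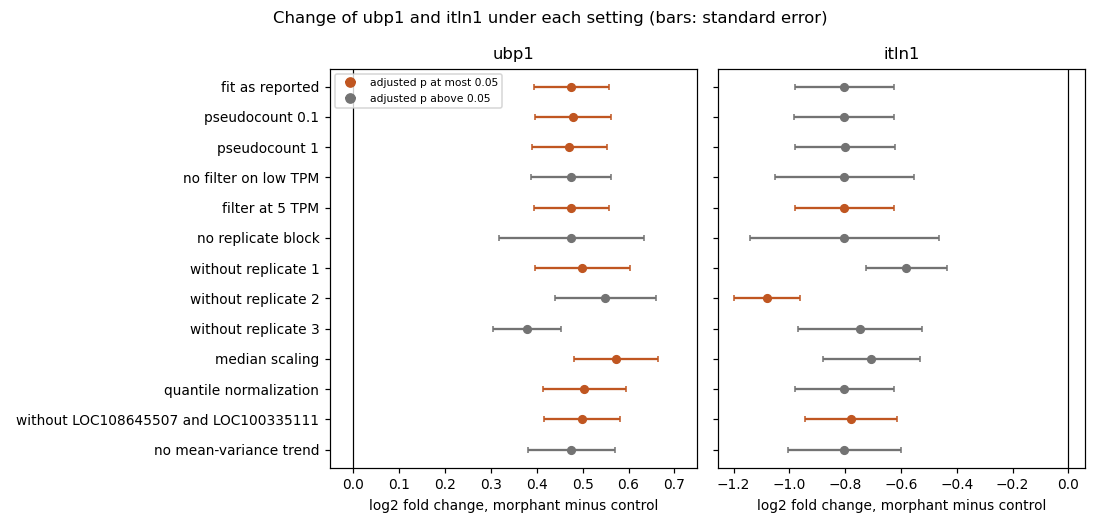
Log2 fold change of *ubp1* (left) and *itln1* (right), morphant minus control, under the reported fit and each of 12 alternatives; points are fitted values, bars are standard errors, and orange marks a limma adjusted p of at most 0.05. The estimates of *ubp1* all lie between 0.38 and 0.57 and those of *itln1* between -1.08 and -0.58, while the calls of both depend on the setting.

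*foxi1* encodes the forkhead factor that specifies ionocytes. It was at 55.8, 62.1 and 72.8 TPM in control samples 1 to 3 and at 59.9, 69.9 and 81.9 TPM in morphant samples 1 to 3. Morphants were above their own control in each set, but the groups overlapped because the sets differed more than the treatment did. The log2 fold change of *foxi1* was 0.15 (standard error 0.057, limma adjusted p = 0.139), which did not pass the test.

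*ca12* encodes a membrane-bound carbonic anhydrase found in ionocytes. It was at 37.3, 39.6 and 36.1 TPM in control samples 1 to 3 and at 34.5, 39.6 and 41.4 TPM in morphant samples 1 to 3. Its sets moved in different directions, and the log2 fold change of 0.029 had a 95% confidence interval of -0.16 to 0.22 (limma adjusted p = 0.822). The interval sets a limit to a change in *ca12* and does not show that there was none.

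Ratios within a sample do not depend on the scale of its TPM values. The ratio of *ubp1* to *foxi1* was 0.651, 0.744 and 0.579 in control samples 1 to 3 and 0.820, 0.830 and 0.822 in morphant samples 1 to 3. The morphant ratios lay close together and above all control ratios. Within the sets the change of *ubp1* exceeded that of *foxi1* by 0.33, 0.16 and 0.50 log2 units, a mean of 0.33 ± 0.17 (SD over 3 sets). No p is given for such differences, since the genes were chosen with results known and an exact sign-flip test over 3 sets cannot go below p = 0.25.

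No other ionocyte gene listed was called higher. Of 16 ionocyte transporters and regulators listed, 7 were tested. Of these, 1 was called lower and 0 higher by limma, against 5.87% and 2.62% of all genes tested. At an unadjusted p under 0.05 from limma, 2 were lower and 0 higher, against 23.4% and 9.76%. The median log2 fold change of the 7 was -0.10, against -0.068 for all genes tested. The gene called was *ca2*, which encodes a cytosolic carbonic anhydrase. It was at 8.60, 7.90 and 19.9 TPM in control samples 1 to 3 and at 6.25, 5.52 and 10.2 TPM in morphant samples 1 to 3, with a log2 fold change of -0.61 (standard error 0.12, limma adjusted p = 0.041). Each morphant sample was below its control, although the groups overlapped. The call of *ca2* was lost without set 2 and without set 3, with limma adjusted p of 0.083 and 0.109, and with median scaling, at 0.0531. It was also lost with quantile normalization and without the mean-variance trend, at 0.061 and 0.0616. The call was kept in 5 of the 12 alternatives.

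The anion exchanger gene *slc26a4*, which encodes pendrin, had a log2 fold change of -0.15 (limma adjusted p = 0.2). Of 20 tested subunits and accessory proteins of the V-ATPase, the proton pump of ionocytes that other cells also use, 0 were called in either direction by limma. At an unadjusted p under 0.05, 1 of the 20 was higher and 6 lower, against the 9.76% and 23.4% of all genes tested, and their median of -0.072 was close to that of all genes tested. The lowest adjusted p of this list was that of *atp6v1b1*, with a log2 fold change of -0.34 (limma adjusted p = 0.0652).

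The 2 secretory cell genes, *itln1* and *foxa1*, had negative log2 fold changes that did not pass the test. *itln1* encodes intelectin 1, a carbohydrate-binding lectin that goblet cells of the *Xenopus* outer epidermis secrete. It was at 231.5, 272 and 191 TPM in control samples 1 to 3 and at 97.3, 228 and 101 TPM in morphant samples 1 to 3. Morphant samples 1 and 3 lay below every control, whereas morphant sample 2 was above control sample 3. The mean was 231 ± 40.2 TPM (SD, n = 3) in controls and 142 ± 74.6 TPM (SD, n = 3) in morphants. The log2 fold change of *itln1* was -0.80 (standard error 0.18, 95% confidence interval -1.24 to -0.36, limma adjusted p = 0.0503), with changes of -1.25, -0.25 and -0.91 in sets 1 to 3.

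The test of *itln1* thus missed the threshold narrowly, and 3 of the 12 alternatives passed it. The limma adjusted p was 0.0282 without set 2, where the log2 fold change was -1.08, 0.0425 with a filter at 5 TPM and 0.0457 without LOC108645507 and LOC100335111. It was 0.0553 without set 1, with a log2 fold change of -0.58, 0.153 without set 3, with -0.75, and 0.594 without the replicate block.

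The related gene *itln2* also differed most in sets 1 and 3. It was at 93.5, 128 and 80.1 TPM in control samples 1 to 3 and at 28.7, 111 and 32.2 TPM in morphant samples 1 to 3, with a log2 fold change of -1.06 (limma adjusted p = 0.0607). As for *itln1*, morphant samples 1 and 3 were below every control and morphant sample 2 was not. Reads may be divided between genes of like sequence, though the likeness of *itln1* and *itln2* was not measured here. *itln1* and *itln2* were also summed before the fit, after their values had been seen. Their sum had a log2 fold change of -0.87 (standard error 0.20, limma adjusted p = 0.0532).

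*foxa1* encodes the forkhead factor of small secretory cells and is also transcribed in endoderm and the axial midline. It was at 67.9, 63.2 and 81.5 TPM in control samples 1 to 3 and at 62.7, 61.5 and 63.6 TPM in morphant samples 1 to 3. The morphant samples lay close together, and the largest difference was in set 3. The log2 fold change of *foxa1* was -0.17 (standard error 0.079, 95% confidence interval -0.36 to 0.024, limma adjusted p = 0.192), which did not pass the test. Of 9 tested markers of endoderm and the axial midline, 0 were called by limma and 2, *foxa2* and *shh*, were lower at an unadjusted p under 0.05, with log2 fold changes of -0.22 and -0.24. The summed TPM of the endoderm and axial list ran from 365 to 506 in controls and from 399 to 478 in morphants, and its part in the values of *foxa1* was not tested.

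Of 17 listed genes of mucus cells, small secretory cells and the cement gland, 13 were tested. Of these, 1 was called lower and 0 higher by limma, against 5.87% and 2.62% of all genes tested. At an unadjusted p under 0.05 from limma, 6 of the 13 were lower and 0 higher, against 23.4% and 9.76% of all genes tested. All 3 morphant samples lay below all 3 controls for 2 of the 13 and above them for 0, against 11.3% and 3.71% of all genes tested. The median log2 fold change of the 13 was -0.19, against -0.068 for all genes tested, and 10 of the 13 were negative. The positive values were 0.52 for *spdef*, whose sets differed in direction (-0.56, 0.69 and 1.43), 0.038 for *creb3l2* and 0.034 for *xbp1*, none of which passed the test. The gene called was *agr3*, which encodes a protein disulfide isomerase of the anterior gradient family. It was at 7.67, 4.24 and 7.04 TPM in control samples 1 to 3 and at 3.80, 1.90 and 3.69 TPM in morphant samples 1 to 3, so that every morphant sample was below every control. Its log2 fold change was -0.92 (standard error 0.096, limma adjusted p = 0.0175), and without set 3 the limma adjusted p was 0.0511. The relative *agr2*, the most abundant gene of the list and a marker of the cement gland, had a log2 fold change of -0.20 (limma adjusted p = 0.0772).

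The epidermal regulators gave small differences, none of which passed the test. *tp63*, the P53 relative of basal epidermal progenitors, was at 69.7, 61.6 and 68.4 TPM in control samples 1 to 3 and at 67.7, 63.9 and 69.4 TPM in morphant samples 1 to 3. Its groups overlapped almost fully, and the log2 fold change of 0.0093 had a 95% confidence interval of -0.13 to 0.15 (limma adjusted p = 0.923). A change of *tp63* inside these bounds remains possible, and an absence of change was not shown.

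The 3 *grhl* genes encode the grainyhead-like factors of vertebrate epithelia. *grhl3*, which drives differentiation of the superficial epidermis, was at 87.6, 117 and 158 TPM in control samples 1 to 3 and at 93.9, 109 and 129 TPM in morphant samples 1 to 3. The order of the sets was the same in both groups, and the sets differed far more than the treatments. The log2 fold change of *grhl3* was -0.10 (standard error 0.085, limma adjusted p = 0.45), with 0.10, -0.10 and -0.30 in sets 1 to 3.

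*grhl1*, a regulator of epidermal keratin expression in *Xenopus*, was at 55.9, 63.9 and 74.5 TPM in control samples 1 to 3 and at 65.5, 65.2 and 70.1 TPM in morphant samples 1 to 3. *grhl2*, which in mouse controls genes of epithelial junctions, was the lowest of the 10 genes, between 9.71 and 11.1 TPM in controls and between 9.86 and 12.1 TPM in morphants. Their log2 fold changes of 0.056 and 0.075 (limma adjusted p = 0.642 and 0.584) lay within the spread of the sets. The difference in change, *grhl3* minus *grhl1*, was -0.13, -0.13 and -0.21 log2 units in sets 1 to 3, a mean of -0.16 ± 0.045 (SD over 3 sets).

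*gata3* encodes a zinc finger factor of the non-neural ectoderm. It was at 85.9, 83.8 and 82.5 TPM in control samples 1 to 3 and at 97.6, 89.2 and 94.5 TPM in morphant samples 1 to 3. All morphant samples were above all controls, but by little, and the log2 fold change of 0.16 (standard error 0.057, limma adjusted p = 0.127) did not pass the test. With median scaling the log2 fold change was 0.25 and the limma adjusted p 0.0638.

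**Figure D3:**
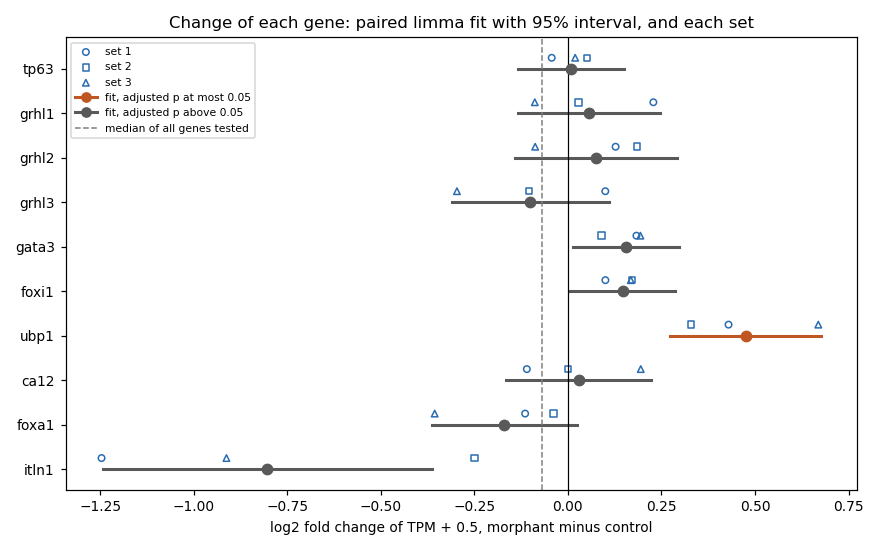
Log2 fold change of TPM + 0.5, morphant minus control, for the 10 genes. Filled points and bars are the paired limma fit with its 95% confidence interval, open blue markers are the differences in sets 1 to 3, and the dashed line is the median of all genes tested; *ubp1* (orange) is the gene that passed the test, and the interval of *itln1*, -1.24 to -0.36, is the widest.

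Other transcription factors of the epidermis included 3 that passed the test. Of 17 tested genes of this list, 3 were called higher and 0 lower by limma, against 2.62% and 5.87% of all genes tested. At an unadjusted p under 0.05 from limma, 4 were higher and 3 lower, against 9.76% and 23.4%. All 3 morphant samples lay above all 3 controls for 4 of the 17 and below them for 1, against 3.71% and 11.3%. The list was drawn up with earlier results of these data known, so these counts are no test of enrichment. *gata2*, the close relative of *gata3* in ventral and non-neural ectoderm, was at 305, 314 and 249 TPM in control samples 1 to 3 and at 373, 388 and 332 TPM in morphant samples 1 to 3. Its log2 fold change was 0.34 (standard error 0.057, limma adjusted p = 0.0328), and all morphant samples were above all controls.

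*foxi4.2*, a forkhead relative of *foxi1* in early ectoderm, was at 47.7, 44.0 and 39.8 TPM in control samples 1 to 3 and at 54.9, 59.7 and 54.7 TPM in morphant samples 1 to 3, a log2 fold change of 0.36 (standard error 0.074, limma adjusted p = 0.0436). *klf17*, a Krüppel-like zinc finger gene, was at 67.9, 86.9 and 95.3 TPM in control samples 1 to 3 and at 96.0, 116 and 120 TPM in morphant samples 1 to 3, a log2 fold change of 0.41 (standard error 0.061, limma adjusted p = 0.0285). Neither gene overlapped between groups. Without set 2 the limma adjusted p of *gata2*, *foxi4.2* and *klf17* was 0.124, 0.161 and 0.0967, and without set 3 it was 0.104, 0.134 and 0.0599, so all 3 calls were lost when either set was left out. All 3 calls were kept under median scaling and quantile normalization. Each of the 3 genes was called in 7 of the 12 alternatives. The RNA is from whole embryos, and the tissue in which these 3 genes were higher was not tested.

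*tfcp2*, the CP2 factor most like *ubp1*, had a log2 fold change of 0.16 (limma adjusted p = 0.142), and its morphant samples, at 68.3 to 72.4 TPM, were above its controls, at 61.5 to 65.1 TPM. The ratio of *ubp1* to *tfcp2* was 0.591 to 0.709 in controls and 0.708 to 0.930 in morphants. Of the regulators that did not pass the test, those with the most negative log2 fold changes were *ehf* at -0.52, *foxi2* at -0.30, *klf5* at -0.26 and *ovol2* at -0.22, while *tfap2a* was at 0.12, *tfap2c* at 0.061 and *dlx3* at -0.031. Of 9 tested genes of the BMP response in ectoderm, 0 were called by limma and 1 was higher at an unadjusted p under 0.05, *bambi*, a BMP pseudoreceptor gene with a log2 fold change of 0.27 (limma adjusted p = 0.0505). In 5 alternatives 1 gene of this list was called higher: the filter at 5 TPM, median scaling, quantile normalization, without set 1 and without LOC108645507 and LOC100335111.

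**Figure D4:**
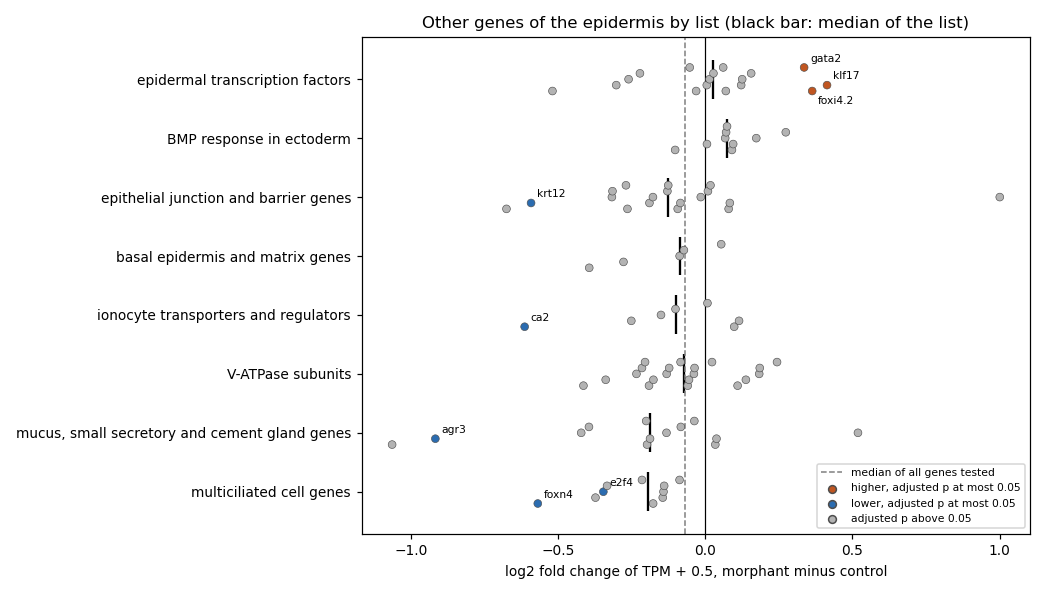
Log2 fold change of TPM + 0.5, morphant minus control, of the tested genes in 8 lists of epidermal biology. Each point is 1 gene, coloured and named where limma called it. Black bars are list medians, and the dashed line is the median of all genes tested, -0.068. The 3 genes called higher, *gata2*, *foxi4.2* and *klf17*, are in the list of epidermal transcription factors.

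Genes of the differentiated epithelium were followed as a list of junction and barrier genes. Of the 18 tested, many are targets of grainyhead-like factors in vertebrates. By limma 1 of the 18 was called lower and 0 higher, against 5.87% and 2.62% of all genes tested. The median log2 fold change of the 18 was -0.13. All 3 morphant samples lay below all 3 controls for 3 of the 18 and above them for 1, against 11.3% and 3.71% of all genes tested. The gene called was *krt12*, a keratin of the embryonic epidermis. It was at 503, 329 and 362 TPM in control samples 1 to 3 and at 274, 261 and 244 TPM in morphant samples 1 to 3, so that the groups did not overlap. Its log2 fold change was -0.59 (standard error 0.11, limma adjusted p = 0.0358), and the limma adjusted p was 0.0971 without set 3 and 0.0515 with median scaling.

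In the opposite direction, *spint1*, a membrane serine protease inhibitor gene named here because of its values, was at 13.2, 6.98 and 7.98 TPM in control samples 1 to 3 and at 15.6, 18.4 and 22.4 TPM in morphant samples 1 to 3. Its log2 fold change of 1.00 did not pass the test (limma adjusted p = 0.0553), and *spint1* was the gene of this list higher at an unadjusted p under 0.05, while 7 of the 18 were lower, against the 9.76% and 23.4% of all genes tested. With the filter at 5 TPM, without set 1 and without LOC108645507 and LOC100335111, 1 gene of this list was called higher. *cdh1*, the E-cadherin gene, and *krt8*, a simple epithelial keratin gene, had log2 fold changes of -0.19 and -0.18 (limma adjusted p = 0.172 and 0.112). Of 5 tested genes of basal epidermis and matrix, 0 were called by limma and 2, *itga6* and *dst*, were lower at an unadjusted p under 0.05.

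**Figure D5:**
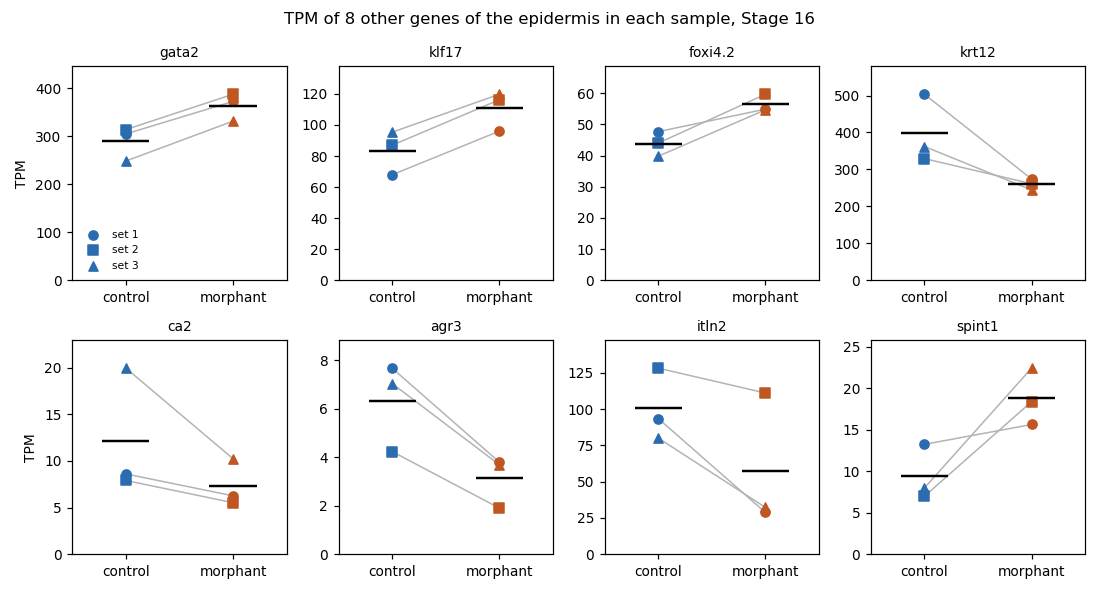
TPM (vertical axes, from 0) of 8 other genes of the epidermis in control and N1-SRC morphant samples, drawn as for the 10 genes: markers are samples, shapes are sets, lines join a set and bars are group means. *gata2*, *klf17* and *foxi4.2* are higher and *krt12* and *agr3* lower in all 3 morphant samples than in any control, and *itln2* is far lower in sets 1 and 3.

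Averaged by role, the 3 ionocyte genes changed by 0.14, 0.17 and 0.34 in sets 1 to 3, the 5 epidermal regulators by 0.12, 0.050 and -0.052, and the 2 secretory cell genes by -0.68, -0.14 and -0.63. The ionocyte mean exceeded the secretory mean in each set, by 0.82, 0.31 and 0.98, a mean of 0.70 ± 0.35 log2 units (SD over 3 sets). *ubp1* and *itln1* carry most of this difference, since *foxi1*, *ca12* and *foxa1* each changed by at most 0.36 in any set. The 7 tested genes of the wider ionocyte list had a median log2 fold change of -0.10, with 3 positive and 4 negative. The secretory mean joins a goblet cell gene, *itln1*, with a small secretory cell gene, *foxa1*. These means describe the genes chosen and not cell types.

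Multiciliated cells are a further cell type of this epithelium. Of 10 tested genes of multiciliated cells, 2 were called lower and 0 higher by limma, against 5.87% and 2.62% of all genes tested. At an unadjusted p under 0.05 from limma, 4 were lower and 0 higher, against 23.4% and 9.76%. All 10 had negative log2 fold changes, with a median of -0.20. The median of all genes tested was also negative, at -0.068. The genes called were *foxn4* and *e2f4*, a pair of transcription factor genes of centriole amplification, with log2 fold changes of -0.57 and -0.35 (limma adjusted p = 0.0485 and 0.0444). Neither passed without set 2, without set 3 or under median scaling. The limma adjusted p there was 0.0962, 0.0925 and 0.0638 for *foxn4* and 0.168, 0.137 and 0.0819 for *e2f4*. Under quantile normalization it was 0.0657 and 0.061, and without LOC108645507 and LOC100335111 it was 0.0563 and 0.0632. Of the 12 alternatives, 3 called *foxn4* and 4 called *e2f4*.

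Some genes of tissues other than epidermis were called lower too, as were 5.87% of all genes tested. Log2 fold changes were positive for 1 of 8 tested muscle markers, 3 of 10 neural markers and 5 of 9 endoderm and axial markers. Of 8 tested muscle markers 4 were called lower (*actn3*, *mybph*, *tnnc1* and *tnni2*, log2 fold changes of -1.19 to -0.75). Of 10 tested neural plate and neuron markers 3 were called lower (*tubb3*, *neurod1* and *tubb2b*, log2 fold changes of -1.01 to -0.88). In either list 0 were called higher by limma. At an unadjusted p under 0.05 from limma, 6 muscle and 5 neural markers were lower, and 0 and 1 were higher. Among all genes tested these shares were 23.4% lower and 9.76% higher. The summed TPM of the muscle list ran from 4543 to 6164 in controls and from 3675 to 5091 in morphants, and that of the neural list from 986 to 1147 and from 899 to 1075. Because TPM is a share of all transcripts, a drop in abundant transcripts raises the others, and the part of these lists in the values of the 10 genes was not tested.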

How the data were processed

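Per the labels, the authors trimmed reads with cutadapt and ran Salmon on a transcriptome of *X. tropicalis*. The deposited values are gene-level TPM for 6 samples, and the authors' group means beside them were not used. The series text names *X. laevis* once, whereas the sample labels and the paper name *X. tropicalis*. Depth is not recoverable from TPM. Testing was limited to genes whose mean reached 1 TPM among controls or among morphants, on log2(TPM + 0.5) with limma 3.58.1 in R 4.3.3 (trend, replicate number as a block, Benjamini-Hochberg, threshold 0.05). The numbers come from the sample titles and the paper describes siblings, and same-numbered samples deviated together from their group means (r = 0.72, 0.61 and 0.73 across genes). Nothing states that sets are separate clutches, so p-values speak for these samples only. They rest on the spread of the differences within sets, which limma draws towards that of other genes. The spread between sets is left out of them. The fit leaves 2 residual degrees of freedom. On simulated data, the share of false calls was above the threshold of 0.05. Sleuth, used in the study, was not used here.

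The 10 genes and all lists were chosen with earlier results of these data known. Named by rule are the 10 genes, *src*, every called gene of each list and, in lists without a call, genes with the lowest adjusted p; *slc26a4*, *agr2*, *krt8*, *cdh1*, *tfap2a*, *tfap2c*, *dlx3*, *ehf*, *foxi2*, *klf5*, *ovol2*, *spdef*, *creb3l2*, *xbp1*, *tfcp2*, *itln2* and *spint1* were named after their values were seen. Lists are described by counts and medians, without a set test. All 10 symbols occur in a RefSeq gene table of another assembly, so no coordinates are given. Alternatives were pseudocounts, filters, no block, each set left out, scalings, no trend, stricter thresholds and 1 gene pair left out. Summing *itln1* and *itln2* was chosen after seeing the data. One listed gene is not reported here.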

Additional observations from a re-analysis of the deposited data

How the results depend on the processing

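The 10 genes kept their direction in the 12 alternatives, except *tp63* without replicate 2 (-0.012), *grhl1* without replicate 1 (-0.030) and *ca12* without replicate 3 (-0.054), none of them called. The log2 fold change of *ubp1* stayed at 0.48 but lost its call with no filter on low TPM, no replicate block and no mean-variance trend, and ran from 0.38 to 0.55 with each set left out. *itln1* was called at -0.80 with a filter at 5 TPM and at -0.78 without LOC108645507 and LOC100335111, and ran from -1.08 to -0.58 with each set left out. So the number of the 10 genes called higher, 1 as reported, was 0 in those 3 settings, at an adjusted p of at most 0.01 and at a minimum absolute log2 fold change of 0.5, and 0 to 1 with each set left out. The number called lower, 0 as reported, was 1 in those 2 settings and 0 to 1 with each set left out. Of all genes tested, 350 were called higher and 786 lower as reported. These limma counts were 0 and 0 with no filter (4515 genes at an unadjusted p under 0.05), 0 and 1 without the block (1124 genes), 0 and 0 at 0.01, 202 and 494 with the minimum change, 126 and 368 without the trend, and 533 and 381 with median scaling. Quantile normalization gave 384 and 402. With each set left out they ran from 44 to 472 higher and from 63 to 714 lower, with 85 and 198 without set 2 and 44 and 63 without set 3. The calls thus depend on pairing by replicate number, as they do on the filter and the threshold. Without the pairing, none of the genes called in the epidermal lists passed, with limma adjusted p from 0.471 (*krt12*) to 0.721 (*ca2*). Leaving out a set gives fewer sets, and dropping the filter gives more genes tested, but the cause of the lost calls was not tested. TPM gives no depth, so counting error is unknown.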
